A study of Mus musculus with 12 samples.

Results

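The mitochondrial ribosome of the embryonic mouse ventricle was followed through the nuclear genes of its proteins, taken as protein-coding genes whose symbol starts with Mrpl (large subunit) or Mrps (small subunit) and a digit. The annotation used for symbols held 78 such genes, of which 77 were found among the 38293 gene identifiers of the count table, and all 77 were among the 13964 genes abundant enough to test. The remaining gene, Mrpl33, was not analysed here. Of the 77, 50 encode proteins of the large subunit, 26 encode proteins of the small subunit, and 1, Mrps36, encodes a protein now known as Kgd4, which belongs to the 2-oxoglutarate dehydrogenase complex rather than the ribosome. Expression was measured in every pool of every genotype, and the members were taken by symbol rather than by their values. The family was chosen with earlier results of these data known.

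Heart ventricles were taken from E15.5 mouse embryos of 4 genotypes, each represented by 3 pools that combined 4 ventricle pairs, and their polyA RNA was sequenced. The Mib1 mutant carried the Mib1 stop allele R530X over a floxed Mib1 allele together with Tnnt2-Cre, and the Cre control carried the floxed allele over a wild-type allele together with the same Tnnt2-Cre. The triple heterozygote carried R530X over wild type and was also heterozygous for Asxl3 and Apcdd1 missense alleles, and WT embryos carried none of these alleles. The Asxl3 change is given as M1361V in the design text and as M1415V in the sample labels, and the Apcdd1 change is V150I (gene written Apcdd in the sample labels). Tnnt2-Cre recombines in cardiomyocytes, so the floxed allele is left whole in the other cells of the ventricle, whereas the stop allele is present in all cells. The count columns of the triple heterozygote are named as mutant without naming an allele and were assigned because they name neither flox nor Cre. Mib1, an E3 ubiquitin ligase that enables Notch ligands to signal, is the targeted gene. It had 54.8, 50.1 and 51.8 CPM (reads scaled to a fixed library size with TMM) in Mib1 mutant pools, against 108, 107 and 101 CPM in Cre control pools. It had 74.0, 57.9 and 74.1 CPM in triple heterozygote pools, against 145, 126 and 136 CPM in WT pools. In both comparisons the groups did not overlap, with log2 fold changes of -1.01 ± 0.09 (SE, edgeR adjusted p = 4.75e-05) and -0.99 ± 0.09 (SE, edgeR adjusted p = 0.000276).

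Mitochondria keep a small genome that encodes core proteins of the respiratory chain, and these are translated by a ribosome of their own. Its RNA is made in the mitochondrion, while all of its proteins are encoded in the nucleus, made in the cytosol and imported. Some descend from bacterial ribosomal proteins and others were added in the mitochondrial lineage. The heart depends strongly on oxidative metabolism, and inherited defects of MRPL3, MRPL44, MRPS14 and MRPS22 cause hypertrophic cardiomyopathy in humans.

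The 3 members with the smallest p-values between Mib1 mutant and Cre control are shown with the 300 bases around their start, from RefSeq on GRCm38.p6, written 5′ to 3′. Capitals mark an Sp motif (GGGCGGG or its reverse complement) in Mrpl40 and Mrpl46, and an NRF1 motif (GCGCA, any base, then GCGC, or its reverse complement) in Mrpl12.
Mrpl40 (chr16:18876588-18876887, minus strand): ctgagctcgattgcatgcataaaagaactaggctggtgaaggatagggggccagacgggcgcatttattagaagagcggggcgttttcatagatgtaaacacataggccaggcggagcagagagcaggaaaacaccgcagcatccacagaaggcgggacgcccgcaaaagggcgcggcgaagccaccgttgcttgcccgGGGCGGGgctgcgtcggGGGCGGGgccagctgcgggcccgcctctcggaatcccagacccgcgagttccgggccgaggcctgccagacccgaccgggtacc
Mrpl46 (chr7:78783040-78783339, minus strand): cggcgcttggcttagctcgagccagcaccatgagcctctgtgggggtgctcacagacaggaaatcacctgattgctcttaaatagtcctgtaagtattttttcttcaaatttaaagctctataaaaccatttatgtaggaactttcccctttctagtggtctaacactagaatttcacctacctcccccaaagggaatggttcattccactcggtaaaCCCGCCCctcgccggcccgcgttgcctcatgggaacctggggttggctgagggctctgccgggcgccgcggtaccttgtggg
Mrpl12 (chr11:120484387-120484686, plus strand): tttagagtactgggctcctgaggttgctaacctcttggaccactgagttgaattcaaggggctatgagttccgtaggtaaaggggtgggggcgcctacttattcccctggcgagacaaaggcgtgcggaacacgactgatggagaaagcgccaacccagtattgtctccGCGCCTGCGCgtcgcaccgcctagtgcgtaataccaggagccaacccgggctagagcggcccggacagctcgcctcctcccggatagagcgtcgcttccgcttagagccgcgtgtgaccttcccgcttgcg

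The windows were searched on both strands for 6 motifs, and none of these is more than a match of letters. Mrpl40 held an Sp motif at 51 and 34 bases upstream of the start, Mrpl46 held one at 32 bases upstream, and Mrpl12 held the NRF1 motif at 81 bases upstream. Across the family, 68 members had a window of this length. The ETS motif CCGGAAG was present in 36.8% of them, against 9.93% of all 27025 genes with a window and 19.5% of the 10492 tested genes with one. The YY1 motif AAGATGGC was present in 17.6%, against 3.19% of all windows and 5.08% of those of tested genes. The NRF1 motif was present in 19.1%, against 5.19% and 11.1%. The Sp motif GGGCGGG was present in 42.6% of members, 27.9% of all genes and 52.0% of tested genes, the E-box CACGTG in 7.35%, 8.09% and 11.7%, and the NFY motif CCAAT in 38.2%, 41.1% and 43.1%. Overlaps between motifs were not removed. The median log2 fold change between Mib1 mutant and Cre control was -0.15 over the 12 members with a YY1 motif and -0.18 over the 56 without one, and for the ETS motif it was -0.16 over 25 members and -0.17 over 43. For the Sp motif it was -0.20 over 29 members and -0.15 over 39, and for the NRF1 motif -0.15 over 13 and -0.17 over 55. For the E-box it was -0.17 over 5 members and -0.17 over 63, and for the NFY motif -0.173 over 26 and -0.165 over 42. These differences were not tested.

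Levels were compared between genes as CPM per kb of exon. They ran from 2.73 for Mrps10 to 86.0 for Mrpl12, with a median of 17.8, so the highest member lay 31.5-fold above the lowest. The 6 highest were Mrpl12, the stalk protein that binds translation factors, Mrps21, Mrpl18, Mrpl34, Mrps23 and Mrpl53. Mrpl12 averaged 72.3 CPM per kb in Mib1 mutant pools, 89.9 in Cre control pools, 91.8 in triple heterozygote pools and 90.2 in WT pools. Mrps21 averaged 69.5, 75.7, 80.2 and 72.6 CPM per kb in the same groups and Mrpl18 averaged 59.8, 71.6, 72.5 and 69.7. The 6 lowest were Mrps10, Mrpl17, Mrps25, Mrps35, Mrps26 and Mrpl57, between 2.73 and 5.98 CPM per kb over all libraries. Annotated exon lengths ranged from 607 to 8631 bases, and the union of all annotated exons was used, so a gene with long rarely used exons reads low on this scale. The exonic length was 8079 bases for Mrps10, the lowest member, against 607 bases for Mrpl34, and how often each exon is used was not measured.

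**Figure D1:**
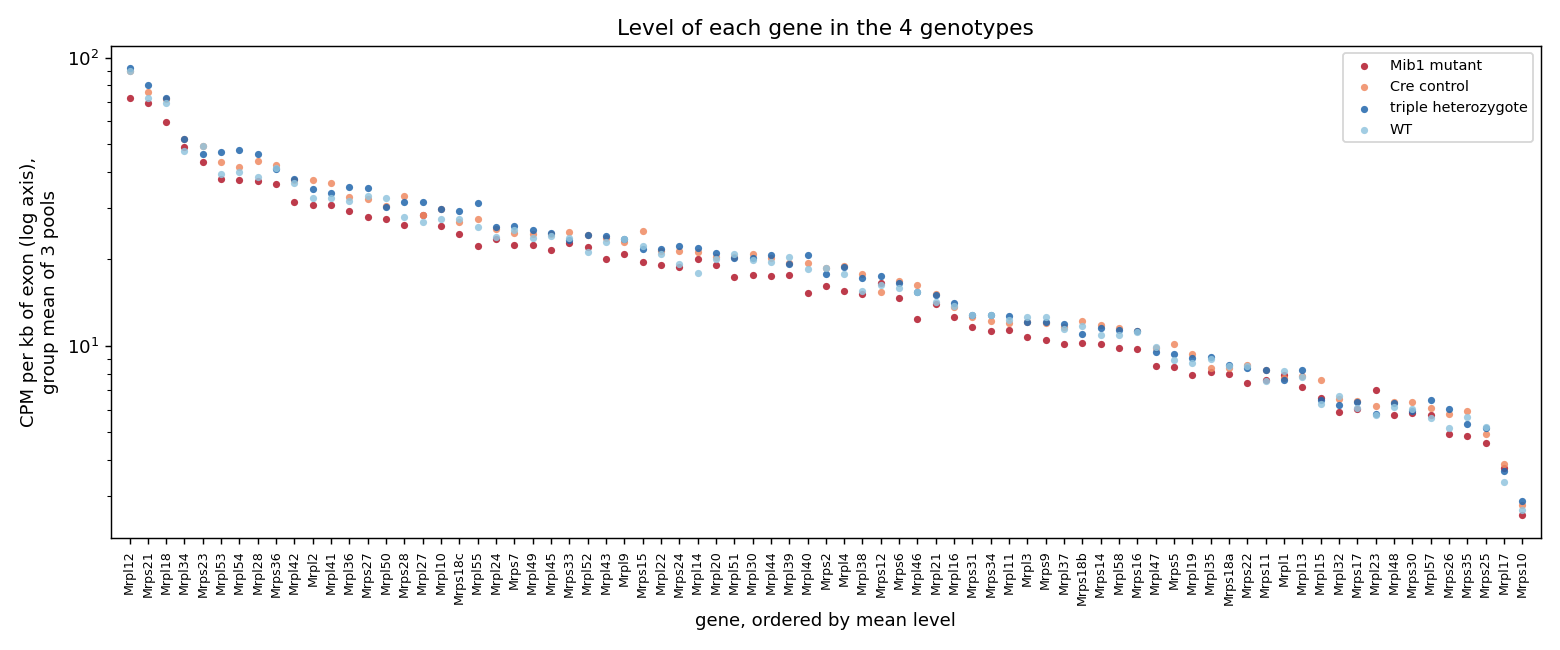
Level of each of the 77 genes as CPM per kb of exon (vertical log axis), with 1 point per genotype for the mean of 3 pools and genes ordered by mean level. Mrpl12 stands highest at 86.0 and Mrps10 lowest at 2.73 over all libraries, and the Mib1 mutant points lie at the lower edge for most genes.

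In the Mib1 mutant no mitochondrial ribosomal protein gene passed the test, while nearly all pointed the same way by a small amount. Of the 77, 73 had a negative log2 fold change against the Cre control and 4 a positive one, and the median was -0.18, which is 88.4% of the Cre control level. Over all genes tested the median was 0.00 and 48.8% were negative. Member values ran from -0.40 to 0.17, with an SD of 0.10 over genes. The median SE of a single gene was 0.11. That SE includes differences between pools that the members share, which the SD over genes leaves out. An adjusted p at or under 0.05 (edgeR quasi-likelihood test, Benjamini-Hochberg over all genes) was reached by 0 of 77 members, against 1.5% of all genes (210 genes). DESeq2 called 1 member (Mrpl12), beside 417 of all genes, and limma-voom called 0 members. At an unadjusted p under 0.05 there were 24 members, all lower, against 14.0% of all genes in either direction. The 3 Mib1 mutant pools lay below the 3 Cre control pools without overlap for 20 members, against 7.75% of all genes, and above them for 0 members, against 8.86%. Among the 6772 genes within the members' range of mean CPM, the smallest change that was called was 0.28 on the log2 scale, so changes of the size of the member median were below what this design called.

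**Figure D2:**
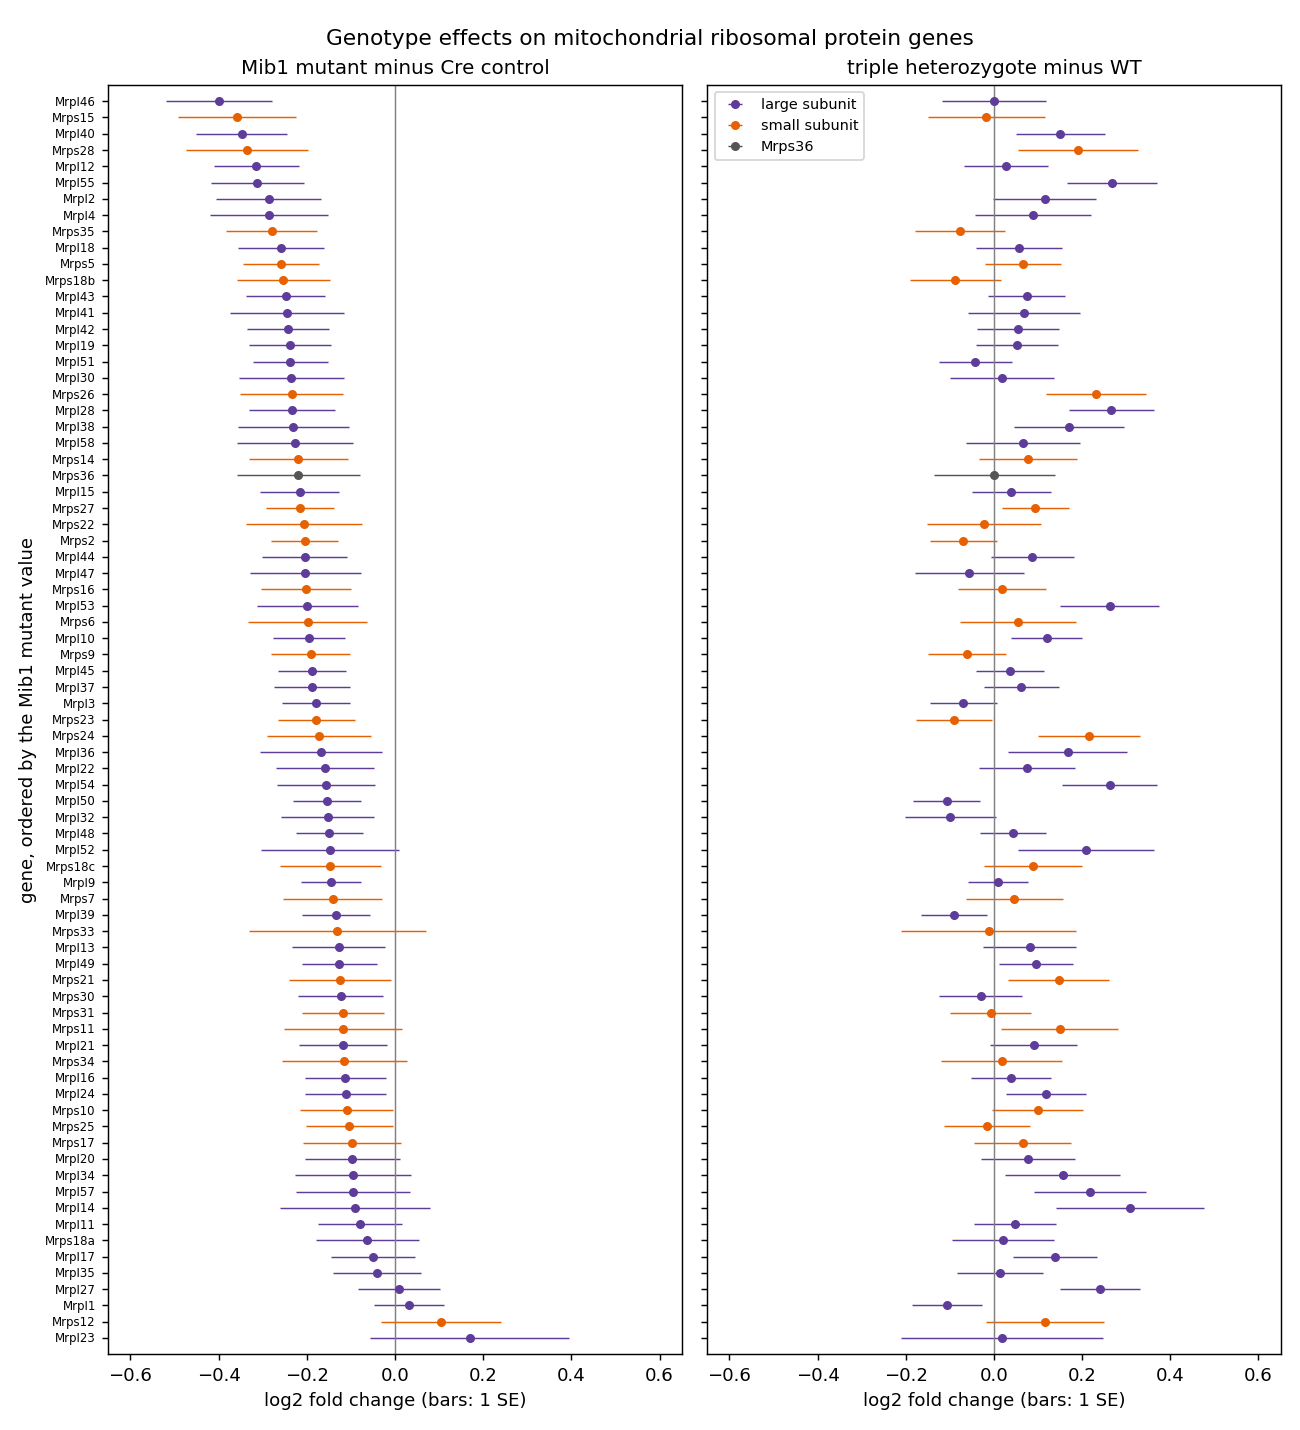
Log2 fold change of each of the 77 genes (points, bars 1 SE) for Mib1 mutant minus Cre control (left) and for triple heterozygote minus WT (right), with genes in the same order in both panels and colours for the subunit. On the left 73 points lie below 0, and on the right 19 do.

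The members nearest to the threshold were proteins of both subunits. Mrpl40, a large subunit protein with no bacterial counterpart, had 23.2, 31.0 and 26.3 CPM in Mib1 mutant pools, against 32.9, 36.7 and 33.0 CPM in Cre control pools. The groups did not overlap, and the log2 fold change was -0.35 ± 0.10 (SE, edgeR adjusted p = 0.119). Its adjusted p was 0.027 without Mib1 mutant replicate 2, and between 0.027 and 0.713 over 18 alternatives. Mrpl46, another protein of the large subunit that bacteria lack, had 15.6, 18.9 and 17.8 CPM in Mib1 mutant pools, against 21.1, 25.9 and 22.2 CPM in Cre control pools. Again every mutant pool was below every control pool, with a log2 fold change of -0.40 ± 0.12 (SE, edgeR adjusted p = 0.124), the most negative value in the family.

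Mrpl12 had 91.6, 119 and 121 CPM in Mib1 mutant pools, against 135, 148 and 131 CPM in Cre control pools. The groups did not overlap, and Mib1 mutant replicate 1 stood apart from the other mutant pools, with a log2 fold change of -0.31 ± 0.10 (SE, edgeR adjusted p = 0.129). Mrps5, a core protein of the small subunit with a bacterial counterpart, had 51.8, 60.5 and 54.4 CPM in Mib1 mutant pools, against 68.0, 69.3 and 62.3 CPM in Cre control pools (log2 fold change -0.26 ± 0.09, edgeR adjusted p = 0.168). Mrps15, another such protein, was not among the 10 members with the smallest p-values and is named for its separate groups. It had 27.5, 36.4 and 35.3 CPM in Mib1 mutant pools, against 42.2, 46.7 and 38.4 CPM in Cre control pools (log2 fold change -0.36 ± 0.13, edgeR adjusted p = 0.229). For both, the pools of the genotypes were separate. Mrpl55 had 20.5, 24.6 and 22.9 CPM in Mib1 mutant pools, against 28.8, 32.0 and 24.1 CPM in Cre control pools. Here mutant replicate 2 lay above control replicate 3, and the log2 fold change was -0.31 ± 0.11 (SE, edgeR adjusted p = 0.170). The other 5 of the 10 members with the smallest p-values were Mrpl51, Mrps27, Mrpl43, Mrps35 and Mrps2. They had log2 fold changes of -0.24, -0.22, -0.25, -0.28 and -0.20, with no overlap between groups. The deposited expected count had a fractional part in 12 libraries for Mrpl51, in 10 for Mrpl40 and in 11 for Mrpl43, so some of their reads were divided with other loci.

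The 4 members with positive values were Mrpl23, Mrps12, Mrpl1 and Mrpl27, chosen after their values were seen. Mrpl23 had 33.2, 35.3 and 33.9 CPM in Mib1 mutant pools, against 28.6, 28.0 and 34.2 CPM in Cre control pools, and the groups overlapped. Relative to its mean it also varied most within a group, with 15.9, 37.2 and 30.8 CPM in WT pools, and its pseudogene Mrpl23-ps1 held 1423 counts over the 12 libraries, so the division of reads between them is uncertain. Mrpl1, a large subunit protein next to the exit site for transfer RNA, had 32.7, 34.3 and 34.7 CPM in Mib1 mutant pools, against 30.5, 35.4 and 33.5 CPM in Cre control pools.

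The member values differed from pool to pool within a genotype, and single pools moved the difference between genotypes in both directions. Of the 6 pools, Mib1 mutant replicate 1 was the lowest for 61 of 77 members and Mib1 mutant replicate 3 for 11, while Cre control replicate 2 was the highest for 65. The mean log2 CPM over the 77 members was 5.04, 5.33 and 5.17 in Mib1 mutant pools, against 5.27, 5.48 and 5.31 in Cre control pools. Mib1 mutant replicate 2 therefore lay above Cre control replicates 1 and 3. Mib1 mutant replicate 1 was below every Cre control pool for 69 members and replicate 3 for 57, but replicate 2 for 24. Leaving out Mib1 mutant replicate 1 and Cre control replicate 2 together, a choice made after seeing the data, left 52 of 77 members negative and a median of -0.03. These pools were picked for their values, so the median had to move towards 0. The opposite choice, without Mib1 mutant replicate 2 and Cre control replicate 1 (the highest mutant and the lowest control pool by member mean), left 76 negative and a median of -0.28, and that choice had to move the median away from 0. Leaving out 1 pool at a time gave medians from -0.24, without Mib1 mutant replicate 2, to -0.10, without Cre control replicate 2.

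**Figure D3:**
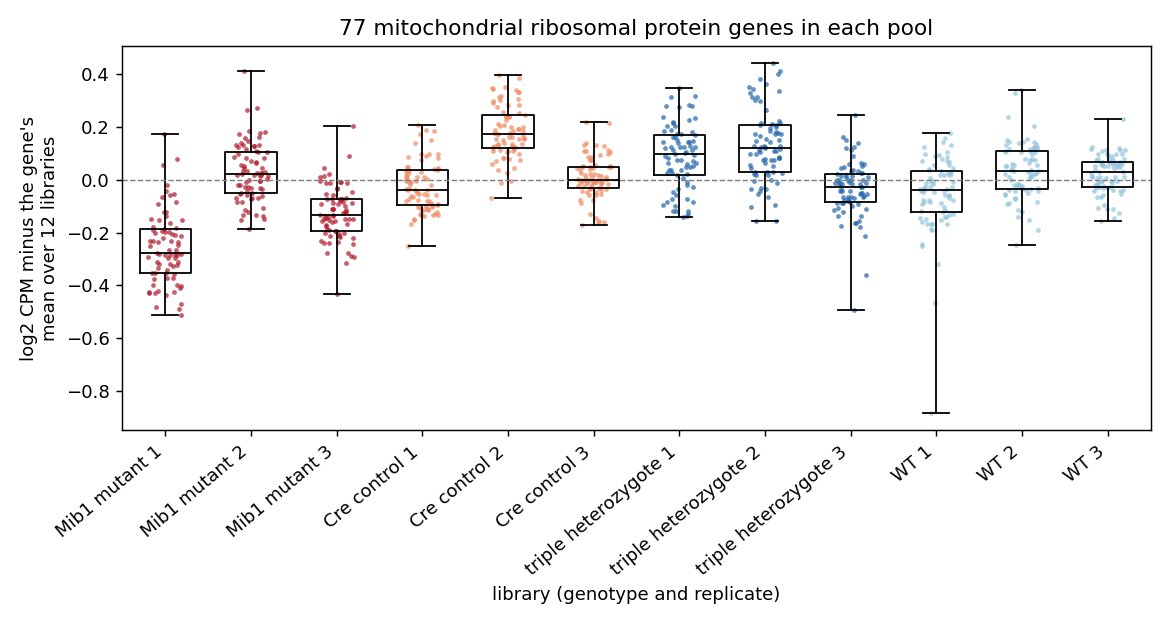
Log2 CPM of each gene minus its own mean over the 12 libraries (vertical axis), in each pool (horizontal axis), with 77 points a pool and boxes that show the median and quartiles with whiskers to the extremes. The median is -0.28, 0.02 and -0.13 in the Mib1 mutant pools, against -0.04, 0.17 and 0.00 in the Cre control pools.

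Markers of cardiomyocytes and genes of the respiratory chain stood lowest and highest in the same 2 pools. The mean log2 CPM of 10 ventricular cardiomyocyte markers, among them Ttn, Myl2 and Tnnt2, was 11.46, 11.81 and 11.73 in Mib1 mutant pools, against 11.83, 11.97 and 11.89 in Cre control pools. All 10 were negative and 0 were called, with a median of -0.24, and none was at 0 in any library, with summed levels of 42001 to 51558 CPM in Mib1 mutant pools, against 52055 to 57581 CPM in Cre control pools. The member mean minus this marker mean was -6.42, -6.48 and -6.56 log2 units in Mib1 mutant pools, against -6.56, -6.49 and -6.58 in Cre control pools, and by this measure the groups overlapped. Set against the mean of the cytosolic ribosomal protein genes, it was -3.03, -2.99 and -2.85 log2 units in Mib1 mutant pools, against -2.83, -2.87 and -2.92 in Cre control pools, so the groups overlapped and Mib1 mutant replicates 1 and 2 were the lowest. Set against nuclear respiratory chain genes, it was -2.335, -2.403 and -2.301 in Mib1 mutant pools, against -2.363, -2.489 and -2.413 in Cre control pools, again with overlap. Set against mitochondrially encoded protein genes, it was -6.44, -6.40 and -6.33 in Mib1 mutant pools, against -6.48, -6.57 and -6.48 in Cre control pools. By that measure every Mib1 mutant pool was the higher one. Markers of fibroblasts and matrix had a median of 0.23, with 8 of 8 positive and 0 called, and summed to 4706 to 5850 CPM in Mib1 mutant pools, against 4297 to 4368 CPM in Cre control pools. Leukocyte markers had a median of -0.59, with 8 of 8 negative, and 2 of them fell, Lyz2 by 1.02 on the log2 scale and C1qb by 0.61 (edgeR adjusted p = 0.00455 and 0.0289). Of 4 smooth muscle markers, Tagln rose, with 53.5, 93.0 and 70.2 CPM in Mib1 mutant pools, against 28.2, 27.1 and 28.7 CPM in Cre control pools (log2 fold change 1.37 ± 0.15, edgeR adjusted p = 0.000179). Myh11, at -1.37 ± 0.44 (SE), Acta2 and Cnn1 did not pass the test, and the median of the list was 0.35. In ventricles sequenced in bulk, fewer cells of a type and less RNA per cell cannot be told apart. The part of cell composition in the member values was not tested. Mib1 mutant replicate 1 and Cre control replicate 1 also had almost no Xist, at 0.095 and 0.387 CPM, against 71.5 to 458 CPM in the other 10 libraries. Without those pools 73 members were negative and the median was -0.16 (an added alternative).

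Both subunits had small negative medians in the Mib1 mutant. The median log2 fold change was -0.16 over 50 large subunit genes, of which 47 were negative, and -0.18 over 26 small subunit genes, of which 25 were negative. Split by origin, the medians were -0.15 for 29 large subunit proteins with a bacterial counterpart, -0.19 for 21 without one, -0.18 for 16 small subunit proteins with a bacterial counterpart and -0.19 for 10 without one. The summed CPM of large subunit genes was 2.31, 2.25 and 2.33 times that of small subunit genes in Mib1 mutant pools, against 2.28, 2.28 and 2.30 times in Cre control pools. Those pools overlapped. In triple heterozygote pools this ratio was 2.310, 2.285 and 2.367, against 2.281, 2.261 and 2.267 in WT pools. The triple heterozygote and WT pools did not overlap, by a small margin, and this difference was not tested. The ratio thus stayed between 2.25 and 2.37 in all 12 libraries.

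The genes linked to human cardiomyopathy lay inside the range of the family. Mrpl3, a protein near the peptidyl transferase centre, had 63.5, 74.3 and 75.7 CPM in Mib1 mutant pools, against 83.9, 82.2 and 75.8 CPM in Cre control pools. Replicate 3 of each genotype differed by a small margin, and the log2 fold change was -0.18 ± 0.08 (SE, edgeR adjusted p = 0.302). Mrpl44 had 25.8, 32.5 and 27.8 CPM in Mib1 mutant pools, against 32.8, 34.8 and 31.9 CPM in Cre control pools, and the groups overlapped. Mrps14 and Mrps22 also overlapped, with log2 fold changes of -0.22 ± 0.11 and -0.21 ± 0.13 (SE, edgeR adjusted p = 0.407 and 0.533). Several proteins sit elsewhere than their symbol says. Mrps18a and Mrps30 are large subunit proteins and had log2 fold changes of -0.06 ± 0.12 and -0.12 ± 0.10 (SE). Mrps18b and Mrps18c, paralogs of Mrps18a that lie in the small subunit, had -0.25 ± 0.11 and -0.15 ± 0.11 (SE), and none of these 4 passed the test. Mrps18b had 19.7, 23.3 and 20.9 CPM in Mib1 mutant pools, against 24.0, 26.6 and 25.6 CPM in Cre control pools, without overlap. Mrps36 had a log2 fold change of -0.22 ± 0.14 (SE, edgeR adjusted p = 0.528), close to the family median although it is no ribosomal protein.

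For other genes of mitochondrial gene expression the medians of the lists ran from -0.20 to -0.02 in the Mib1 mutant, and 0 genes of these lists passed the test. The 5 ribosomal proteins with other symbols (Ptcd3, Gadd45gip1, Aurkaip1, Chchd1 and Dap3) were all negative, with a median of -0.20. Of 27 genes for assembly of the ribosome and modification of its RNA, 21 were negative, with a median of -0.16. The nearest to the threshold was Mtg1, a GTPase in the assembly of the large subunit, which had 13.8, 11.7 and 14.0 CPM in Mib1 mutant pools, against 18.0, 23.4 and 16.7 CPM in Cre control pools (log2 fold change -0.55 ± 0.13, edgeR adjusted p = 0.0507). Mrm1, which methylates the large ribosomal RNA, followed with -0.32 ± 0.09 (SE, edgeR adjusted p = 0.0842). Of 16 translation factors, 13 were negative, with a median of -0.17, led by the elongation factor Tufm at -0.25 ± 0.08 (SE). Of 22 tRNA synthetases, 19 were negative, with a median of -0.12. For 11 genes of mitochondrial DNA and transcription the median was -0.09, with Tfam at -0.10 ± 0.07 (SE). For 11 regulators of nuclear mitochondrial genes it was -0.02, and 7 of them were negative. The 3 of these with the smallest p-values were Esrra at -0.18 ± 0.10, Gabpb1 at 0.16 ± 0.09 and Nrf1 at 0.09 ± 0.09 (SE).

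The RNAs that the mitochondrial ribosome translates, and those of nuclear respiratory chain genes, also had negative values. The RNAs of all 13 proteins encoded in mitochondrial DNA were negative, with a median of -0.29 and 0 called. Mt-Nd1, a core subunit of complex I, had a log2 fold change of -0.36 ± 0.10 (SE, edgeR adjusted p = 0.0921). The ribosomal RNAs mt-Rnr1 and mt-Rnr2 had -0.21 ± 0.17 and -0.28 ± 0.13 (SE), measured in polyA RNA. All 74 nuclear genes of the respiratory chain were negative, with a median of -0.24 and 0 called, and their mean log2 CPM was lowest in Mib1 mutant replicate 1 (7.37) and highest in Cre control replicate 2 (7.97). The most negative of these values was that of Cox6a2, the heart and muscle form of a complex IV subunit, at -0.70 ± 0.17 (SE, edgeR adjusted p = 0.0533). For comparison, the median over 74 genes of the cytosolic ribosome was -0.08, and 70 of them were negative and 0 called.

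**Figure D4:**
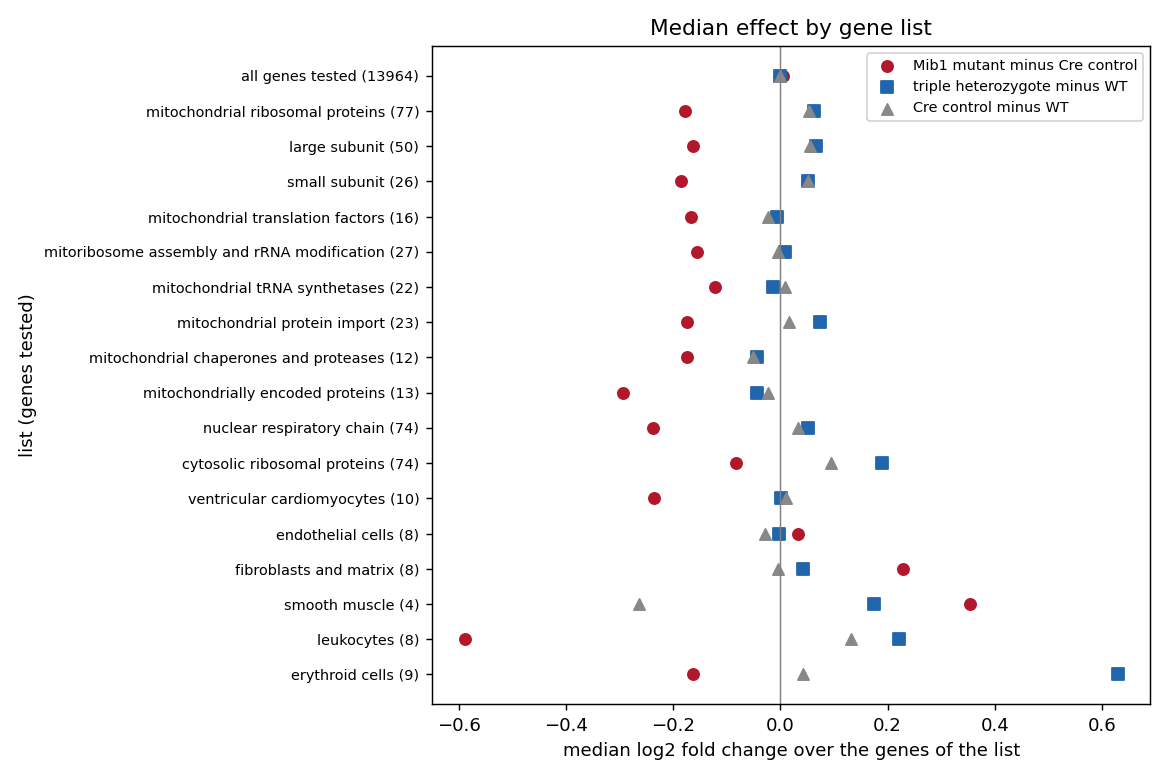
Median log2 fold change over the genes of each list (horizontal axis) in 3 comparisons, with the number of genes tested in brackets. For Mib1 mutant minus Cre control the lists of mitochondrial translation, import and respiration lie between -0.12 and -0.29, while the median of all genes tested is 0.00.

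Genes that start near a member on the other strand had a median nearer to 0. A start within 1000 bases on the opposite strand was found for 33 of 77 members, and 28 of these neighbours were tested genes outside the family. Of the members in those 28 pairs, 26 were negative between Mib1 mutant and Cre control, with a median of -0.16. Of their neighbours, 16 were negative, with a median of -0.04 and 0 called. Hira, which starts 175 bases from Mrpl40, had a log2 fold change of 0.03 ± 0.09 (SE), beside -0.35 for Mrpl40. Klc4, which starts 207 bases from Mrpl2, had 0.12 ± 0.12 (SE), beside -0.29 for Mrpl2. The neighbours of Mrpl47 and Mrpl36 are themselves respiratory chain genes, and these, Ndufb5 and Ndufs6, had -0.27 ± 0.09 and -0.23 ± 0.10 (SE). In 8 of the 28 pairs the neighbour had the lower value, and these also include Cyb5rl at -0.23 beside Mrpl37 at -0.19, and Eme2 at -0.26 beside Mrps34 at -0.11. The pairs named here were chosen after their values were seen, and the difference between members and neighbours was not tested. Exons of several pairs, Mrpl47 with Ndufb5 and Mrpl36 with Ndufs6 among them, overlap on opposite strands. The strand setting of the counting is not stated, so the values within such pairs may not be independent.

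**Figure D5:**
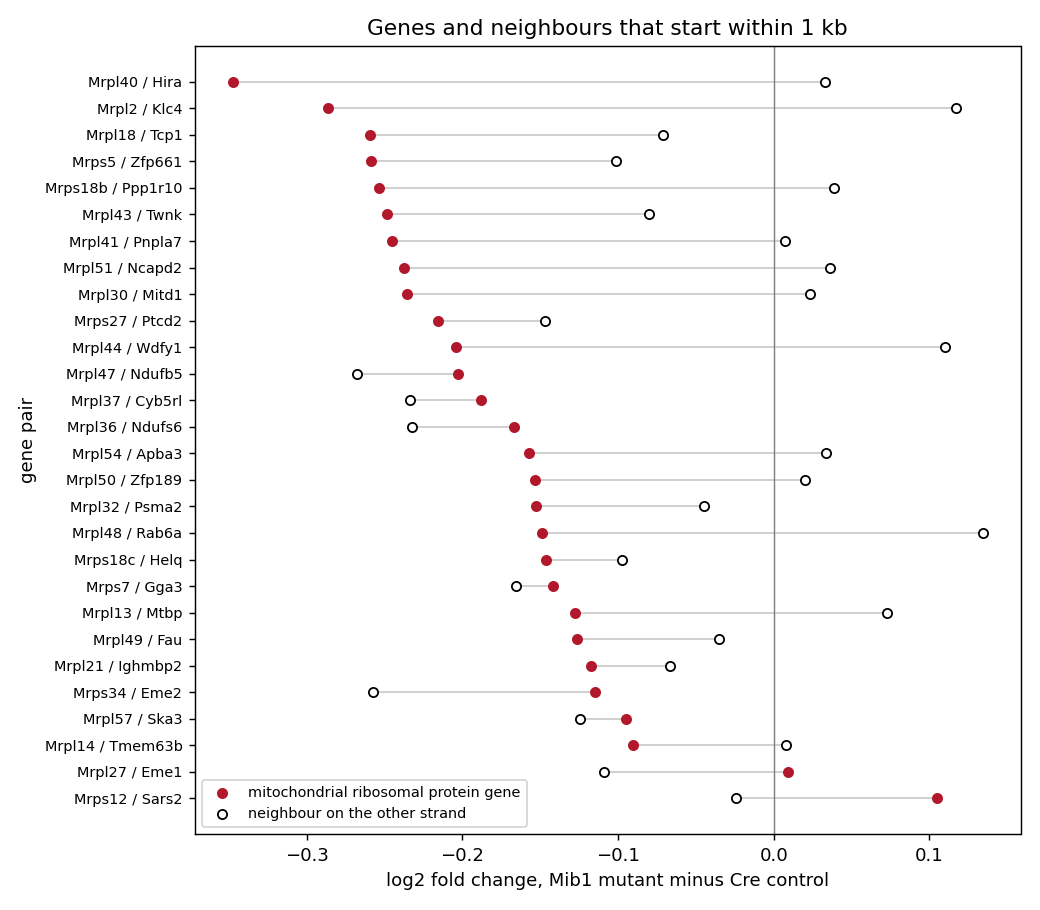
Log2 fold change (Mib1 mutant minus Cre control) for 28 genes of the family (filled points) and the gene that starts within 1000 bases on the opposite strand (open points), 1 pair a row. Of the filled points 26 lie below 0, and of the open points 16 do.

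In the triple heterozygote, which also carries R530X over wild type, most members had small values of the opposite sign and 0 passed the test. Against WT, 58 of 77 were positive and 19 negative, with a median of 0.06, which is 104% of the WT level, while the median of all genes was 0.00. Of 50 large subunit genes 9 were negative, and of 26 small subunit genes 10 were. Large subunit proteins with and without a bacterial counterpart had medians of 0.07 and 0.07. Small subunit proteins with one had 0.07, and the 10 without one had -0.01, with 7 negative. Of all genes 0.0215% were called, and the members called were 0 with edgeR, DESeq2 and limma-voom alike. At an unadjusted p under 0.05 there were 5 members, all higher, against 8.66% of all genes in either direction. The groups did not overlap for 4 members that were higher, against 7.67% of all genes, and for 2 that were lower, against 9.19%, so both shares were below the background. The mean log2 CPM over the members was 5.38, 5.43 and 5.26 in triple heterozygote pools, against 5.24, 5.33 and 5.32 in WT pools, and the pools overlapped.

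Mrpl28 had the smallest p-value, with 63.0, 70.3 and 58.5 CPM in triple heterozygote pools, against 55.9, 52.5 and 51.5 CPM in WT pools (log2 fold change 0.27 ± 0.10, edgeR adjusted p = 0.565). Mrpl55 had 33.8, 30.1 and 32.2 CPM in triple heterozygote pools, against 26.3, 26.7 and 26.6 CPM in WT pools (log2 fold change 0.27 ± 0.10, edgeR adjusted p = 0.565). Mrpl27 and Mrpl53 were the other members above WT without overlap, at 0.24 ± 0.09 and 0.26 ± 0.11 (SE). The members below WT without overlap were Mrpl1, at -0.11 ± 0.08, and Mrps2, at -0.07 ± 0.08 (SE). The genes of the cytosolic ribosome were positive in 74 of 74 cases here, at a median of 0.19, and 0 were called. The erythroid markers had a median of 0.63, with 9 of 9 positive and the alpha globins Hba-a1 and Hba-a2 called higher. Their summed level was 7184 to 8402 CPM in triple heterozygote pools, against 4414 to 5181 CPM in WT pools, and its part in the member values was not tested. The 10 cardiomyocyte markers had a median of 0.00.

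The test of whether the effects of the Mib1 mutant and of the triple heterozygote differ was passed by 0 members with edgeR, DESeq2 and limma-voom, against 0.516% of all genes with edgeR. The Mib1 mutant effect was the lower one for 75 of 77 members, and the median difference between the effects was -0.23, against 0.00 for all genes. At an unadjusted p under 0.05 there were 20 members, all lower, against 13.8% of all genes. Mrpl55 had the smallest p-value, with a difference of -0.58 ± 0.15 (SE, edgeR adjusted p = 0.112). Mrpl28 followed with -0.50 ± 0.14 (SE, edgeR adjusted p = 0.148), and Mrpl40 with -0.50 ± 0.14 (SE, edgeR adjusted p = 0.183). In all, 55 members were negative in the Mib1 mutant comparison and positive in the triple heterozygote comparison, 18 were negative in both, 3 positive in both, and 1 positive and then negative. With 73 members negative in the Mib1 mutant comparison and 58 positive in the triple heterozygote comparison, most of this overlap was fixed by those counts. These comparisons share no pools.

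The Cre control and WT groups, which differ in the floxed allele, in Cre and possibly in background, were also compared. Mib1 itself had 108, 107 and 101 CPM in Cre control pools, against 145, 126 and 136 CPM in WT pools. The groups did not overlap, and its log2 fold change was -0.37 ± 0.09 (SE, edgeR adjusted p = 0.150), which did not pass the test. Of 77 members 54 were positive and 23 negative, with a median of 0.05, and 0 were called by edgeR, DESeq2 or limma-voom, against 0.279% of all genes with edgeR. At an unadjusted p under 0.05 there were 2 members, both higher, against 8.43% of all genes. The groups did not overlap for 6 members that were higher, against 8.9% of all genes, and for 1 that was lower, Mrpl50, against 10.2%. Mrpl15, a large subunit protein with a bacterial counterpart, had 64.7, 72.5 and 56.8 CPM in Cre control pools, against 53.9, 53.6 and 52.7 CPM in WT pools (log2 fold change 0.27 ± 0.09, edgeR adjusted p = 0.371). Without Cre control replicate 2, 50 of 77 members were negative and the median was -0.02. The Cre control also enters the Mib1 mutant comparison and the difference between the effects, so the values of these 3 comparisons are not independent.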

How the data were processed

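Ventricles of 12 pools were measured by strand-specific polyA RNA sequencing (60-base single reads, per the labels' protocols). Tools listed in the submitters' processing notes are RSEM, limma, cutadapt and bcl2fastq (2.20.0.422), with GRCm38 as the build, and which aligner was run is not given in the sources used here. What the authors deposited was a table of expected counts per gene, estimated by RSEM, of which 9.64% were not exactly whole as written (no tolerance), since RSEM divides reads that match several genes. All 12 columns were used, and the strand setting of the counting is not stated. Exons of another gene overlapped 7 members on the same strand and 28 on the opposite strand.

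After rounding, the expected counts were tested in R 4.3.3 with edgeR 4.0.16 (quasi-likelihood, two-sided, TMM scaling, filterByExpr) in 1 fit of 12 libraries and 4 groups with 8 residual degrees of freedom, with Benjamini-Hochberg adjustment over 13964 genes and a threshold of 0.05. SE is the log2 fold change over the square root of F. The test was checked on simulated data. DESeq2 1.42.0, limma 3.58.1, other scalings and filters, a replicate block and leaving out each pool were alternatives. Totals were 10103476 to 22157646 counts per library, so 1 read is 0.0452 to 0.0991 CPM. Replicates are pools, whether they share litters is not stated, and replicate pairs differed by more than sampling noise. Symbols, positions and exon lengths came from GENCODE M21 on GRCm38 (36429 of 38293 identifiers matched), and promoters from RefSeq. The members, lists, tests and the rule for named genes were chosen with earlier results of these data known. The rule names, per comparison, members called, the 10 with the smallest p and the 5 largest without overlap in each direction, also the 6 highest and 6 lowest per kb, cardiomyopathy genes, members misplaced by their symbol, and the leading genes of each list.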

Additional observations from a re-analysis of the deposited data

Results flagged for a closer look

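No mitochondrial ribosomal protein gene met a criterion for a closer look, and groups of 3 pools were not tested for single outlying pools. Among the marker genes set beside them, 7 had effects that differed between the Mib1 mutant comparison and the triple heterozygote comparison in the test of the difference itself (edgeR, Benjamini-Hochberg over all genes). The erythroid genes had differences, on the log2 scale, of -1.03 for Hba-a2, -0.93 for Hba-a1, -0.76 for Hbb-bs, -0.87 for Hbb-bt and -0.90 for Alas2. The macrophage gene Lyz2 had a difference of -1.20, and the smooth muscle gene Tagln had one of 1.10. The near-identical alpha globin pair shares reads, so the division between Hba-a1 and Hba-a2 is uncertain.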

How the results depend on the processing

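In the settings tried, the median over the 77 genes stayed below 0 for the Mib1 mutant comparison and above 0 for that of the triple heterozygote. For the Cre control comparison it changed sign, with values from -0.022 to 0.094. No member passed the test in the main fit, so no member result could reverse after passing. Under the scaling alternatives the median of all genes stayed within 0.011 of 0 on the log2 scale. Genes called in the Mib1 mutant, triple heterozygote, difference and Cre control comparisons were 476, 54, 246 and 144 with no filter on low counts, and 417, 28, 167 and 82 with DESeq2. Fits of only the libraries compared called 93, 10 and 68 genes in the Mib1 mutant, triple heterozygote and Cre control comparisons. Members called were 1 (Mrpl12) in the Mib1 mutant and 2 (Mrpl28 and Mrpl55) in the difference with no filter, and 1 (Mrpl12) in the Mib1 mutant with DESeq2. With the replicate number as a block, 318 genes and 1 member (Mrpl46, adjusted p = 0.0312) were called in the Mib1 mutant comparison, 109 genes in the difference and 59 in the Cre control comparison. Pools were also compared by their deviations, the log2 CPM of each tested gene minus its group mean. These deviations correlated by 0.125, 0.166 and 0.014 between Mib1 mutant and Cre control pools with the same number. For pools with different numbers the correlations of the deviations ran from -0.21 to 0.113. Mib1 mutant replicates 1 and 2 correlated best with the Cre control of their own number and replicate 3 did not, and the labels do not say what a number shares, so the numbers were not taken as pairs. Without the pools with almost no Xist (also chosen after seeing the data), calls numbered 110 for the Mib1 mutant and 41 for the difference, and 12 members were negative in the Cre control comparison. Without the pools lowest and highest in most members, chosen after seeing the data, 107 genes were called and the member median was -0.031 in the Mib1 mutant comparison, the median was -0.113 in the difference, and 50 members were negative in the Cre control comparison. The opposite choice, without the highest mutant and the lowest control pool by member mean, gave 340 genes and 1 member (Mrpl40) called in the Mib1 mutant comparison, 342 genes, 2 members and a median of -0.359 in the difference, and 13 members negative in the Cre control comparison. The cause of these shifts was not tested.

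Leaving out 1 pool at a time gave 116 to 415 genes and 0 to 2 members called in the Mib1 mutant comparison (Mrpl40 and Mrpl42 without Mib1 mutant replicate 2), 1 to 3 genes in the triple heterozygote comparison, 28 to 233 genes and 0 to 2 members in the difference, and 23 to 42 genes in the Cre control comparison. Members with a negative value then numbered 69 to 74, 14 to 28, 71 to 76 and 12 to 50 in the same order, and the medians ran from -0.239 to -0.100, 0.030 to 0.101, -0.314 to -0.158 and -0.022 to 0.087. With 3 pools a group, single changes under about 0.28 on the log2 scale were not called in the Mib1 mutant comparison at this level of expression.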
